A study of Mus musculus with 16 samples.

Results

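Claudins are the membrane proteins that form the strands of tight junctions, the belts that close the space between neighbouring epithelial cells near their apical side. Which claudins a cell makes sets how leaky that space is: some members seal it, while others form pores that let small cations and water pass between cells. In the small intestine, new cells arise from stem cells at the crypt base, divide in the transiently amplifying zone, move onto the villus and are shed at its tip, so a claudin that is made at one height of this axis shapes the junctions there. Values are given here for 6 claudins, *Cldn2*, *Cldn3*, *Cldn4*, *Cldn7*, *Cldn15* and *Cldn23*, which were chosen by name and were all found among the 24421 genes listed in both count matrices. The matrices list 26 other claudin genes, of which 18 had no unique molecular identifier (UMI, a tag that marks 1 captured RNA molecule) in any cell, 7 had from 2 to 14, and *Cldn12* had 160.

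Single cells came from crypt isolates of outbred mouse pups at postnatal day 16, with 8 labelled samples of wild-type mice (*WT*) and 8 of *ROBO-Crainbow* mice (*ROBO*). Per the paper, *ROBO* mice carry a transgene, ROBO(+/-):VilCre(+/-), from which *Villin-Cre*, a recombinase made in the developing intestinal epithelium, switches on human *RSPO3* or either of its fusions with *PTPRK*, each marked by a different fluorescent protein. RSPO3 is a secreted protein that strengthens Wnt signalling in stem cells. The cell names give the genotype but not the sample, so a genotype counts as 1 sample and its values carry no replicate error and no test. The matrices hold no row for the human transgene or the reporters. Neither the switched-on form nor whether a cell had recombined can therefore be told.

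There were 1348 *WT* cells with 2682127 UMIs in all, a median of 1492 per cell, and 1249 *ROBO* cells with 2428435 UMIs, a median of 1610. Unsupervised clustering, from which all claudin and other junction genes were left out, gave 12 clusters, and 10 of them were named from marker genes. The crypt side was made of stem cell-like cells (499 cells, led by *Igfbp4* and *Lgr5*) and transiently amplifying-like cells (776 cells in 2 clusters). Of the latter, a cluster of 389 cells led by *Sfrp5* had a median of 3057 UMIs and all 20 division markers raised, while one of 387 cells led by *Rn45s*, a ribosomal RNA gene, had a median of 899 UMIs and 6 of the 20 raised, *Top2a* and *Tyms* among them. The villus side was made of bottom (227 cells, led by *Reg1* and *Gsdmc4*), middle (416 cells in 2 clusters, led by *Cubn* and by *Sis*) and top enterocyte-like cells (230 cells, led by *Gpx3*, *Mfi2* and *Ada*). Secretory-like cells (126), enteroendocrine-like cells (30) and immune-like cells (46) completed the named classes, and the 247 cells of 2 unnamed clusters were counted as epithelial-like but placed on neither side. The *Cubn*-led and *Sis*-led middle clusters also had 10 and 8 of the 16 top enterocyte markers raised. The top class had 8 middle enterocyte markers raised, so the markers do not part middle and top sharply. Of the unnamed clusters, that led by *Fosb* (122 cells) had 10 of 16 top enterocyte markers raised. That led by *Myl7* (125 cells) had 4 of 17 stem markers raised. No fibroblast-like cluster was found. In the stem cell-like class, 4 of 247 *WT* and 4 of 252 *ROBO* cells had at least 3 fibroblast markers, and without them the *WT* level of *Cldn3* there was 5.46 in place of 5.39 UMIs per 10000. The labels call these crypt cells, and 33.6% of all cells (873 of 2597) carried villus marker profiles.

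Levels are UMIs of a gene per 10000 UMIs of a class, with exact Poisson 95% intervals in parentheses, and differences are log2 ratios of levels with conditional exact 95% intervals. Neither kind of interval covers the spread between mice or libraries, only that of counting. The kit tags the 3′ end of each molecule, so a level is not divided by gene length, and levels are compared between cells, not between claudins. The immune-like class, of 46 cells, was used as a guide to the level that free RNA or attached fragments can give. That level ran from 0.11 UMIs per 10000 for *Cldn23* (1 UMI) to 0.995 for *Cldn15* (9 UMIs). *Epcam* had 3.76 there, against 19.6 in epithelial-like cells. Whether the immune-like cells make claudins themselves was not tested.

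The positions of the 6 genes are from GENCODE M21 on GRCm38. *Cldn4* (chr5:134945119-134946934, reverse strand) and *Cldn3* (chr5:134986214-134987472, forward strand) lie close together, each with 1 exon, and *Cldn15* (chr5:136966616-136975858, forward strand) is on the same chromosome with 5 or 6 exons. *Cldn23* (chr8:35824712-35826559, reverse strand) has 1 exon, *Cldn7* (chr11:69964779-69967885, forward strand) has 4 or 5, and *Cldn2* (chrX:139800828-139811386, forward strand) has 2. The antisense gene *Wbscr25* overlaps *Cldn3*, and *Cldn7* lies 336 bases from *Elp5* on the opposite strand. Whether counting used strand is not given in the sources used here, so reads of these pairs may have been mixed. The promoters of *Cldn4* and *Cldn15* are shown because these claudins differed in opposite directions in the top enterocyte-like class. Each is RefSeq's window of 250 bases before to 50 bases after the annotated start, read along the gene's strand on GRCm38.p6, at chr5:134946885-134947184 for *Cldn4* and chr5:136967619-136967918 for *Cldn15*. The *Cldn15* window lies inside the gene span printed above, so its annotated start is downstream of the GENCODE start of the gene. Capitals mark the AP-1 motif TGANTCA and the CDX motif TTTAT, searched on both strands.

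Cldn4 promoter: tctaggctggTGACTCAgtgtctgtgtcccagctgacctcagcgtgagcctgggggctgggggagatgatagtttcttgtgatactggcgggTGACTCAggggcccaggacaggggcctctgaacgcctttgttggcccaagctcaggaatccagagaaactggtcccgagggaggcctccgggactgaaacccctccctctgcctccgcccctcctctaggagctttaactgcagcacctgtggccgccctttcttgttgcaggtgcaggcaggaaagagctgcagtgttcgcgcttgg
Cldn15 promoter: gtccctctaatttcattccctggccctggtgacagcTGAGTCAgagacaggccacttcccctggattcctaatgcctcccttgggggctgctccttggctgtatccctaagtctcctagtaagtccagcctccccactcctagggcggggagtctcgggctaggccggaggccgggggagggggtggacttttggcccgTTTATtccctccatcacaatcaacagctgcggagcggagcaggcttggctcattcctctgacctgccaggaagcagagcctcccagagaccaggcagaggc

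The *Cldn4* window held the AP-1 letters 2 times and no CDX letters, and the *Cldn15* window held each motif 1 time, with no overlap between them. Of all 32851 promoter windows of this length, 7.81% held the AP-1 letters and 40.0% the CDX letters. The *Cldn2* window held the CDX letters 2 times. The windows of *Cldn3* and *Cldn7* held neither motif, and the GATA (GATAA), HNF1 (GTTAAT) and TCF/LEF (CTTTGA) letters were in none of the 5 windows searched. No window of *Cldn23* was searched. These matches describe letters and not binding.

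Between the villus and the crypt classes as wholes, the claudins divided into *Cldn4* and *Cldn23*, which were higher on the villus side, and the other 4, which lay within a log2 ratio of 0.16 of equal. Past 2-fold in either direction were 2 of the 6 members, both higher in villus cells, beside 30.5% of the 8531 genes with at least 50 UMIs. The median of all these genes was a log2 ratio of -0.30, and the members' median was 0.10. Each of the 6 claudins had a ratio above the median of all genes.

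*Cldn4*, a sealing claudin that lowers the passage of cations, had 0.42 UMIs per 10000 (0.32 to 0.55) in crypt and 1.05 (0.84 to 1.29) in villus cells of *WT*, and 0.61 (0.47 to 0.77) and 1.11 (0.90 to 1.36) in *ROBO*. The villus level was the higher in both genotypes, and the intervals of crypt and villus did not overlap in either. Over both genotypes it was 2.13-fold higher (log2 ratio 1.09, 0.76 to 1.43). *Cldn23*, a less studied member of the family, had 0.29 (0.21 to 0.40) in crypt and 0.71 (0.54 to 0.91) in villus cells of *WT*, and 0.35 (0.25 to 0.48) and 0.67 (0.51 to 0.86) in *ROBO*. This was 2.15-fold higher on the villus side (log2 ratio 1.10, 0.68 to 1.54). Both log2 ratios were above 1 in *WT*, at 1.31 and 1.27, and below 1 in *ROBO*, at 0.88 and 0.93, with intervals that overlapped between the genotypes. Both stayed above 0 under every alternative that was run, from 0.46 to 1.56 for *Cldn4* and from 0.87 to 1.85 for *Cldn23*, but the number past 2-fold ran from 0 to 2, and *Cldn4* had 0.46 at a clustering resolution of 1.2.

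The remaining claudins differed little between these sides. The log2 ratio of villus over crypt was 0.03 (-0.13 to 0.19) for *Cldn2*, 0.00 (-0.13 to 0.14) for *Cldn3*, 0.04 (-0.10 to 0.16) for *Cldn7* and 0.16 (0.02 to 0.29) for *Cldn15*. The small pooled ratios of *Cldn3* and *Cldn15* covered large differences among the enterocyte classes, which the levels by class show. No direction is given for *Cldn15* here, since its ratio was -0.08 with cells given the same weight and -0.39 at a clustering resolution of 0.4. The latter compared other cells: 131 middle and 230 top enterocyte-like cells against 684 stem cell-like cells, with no bottom or transiently amplifying-like class.

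**Figure D1:**
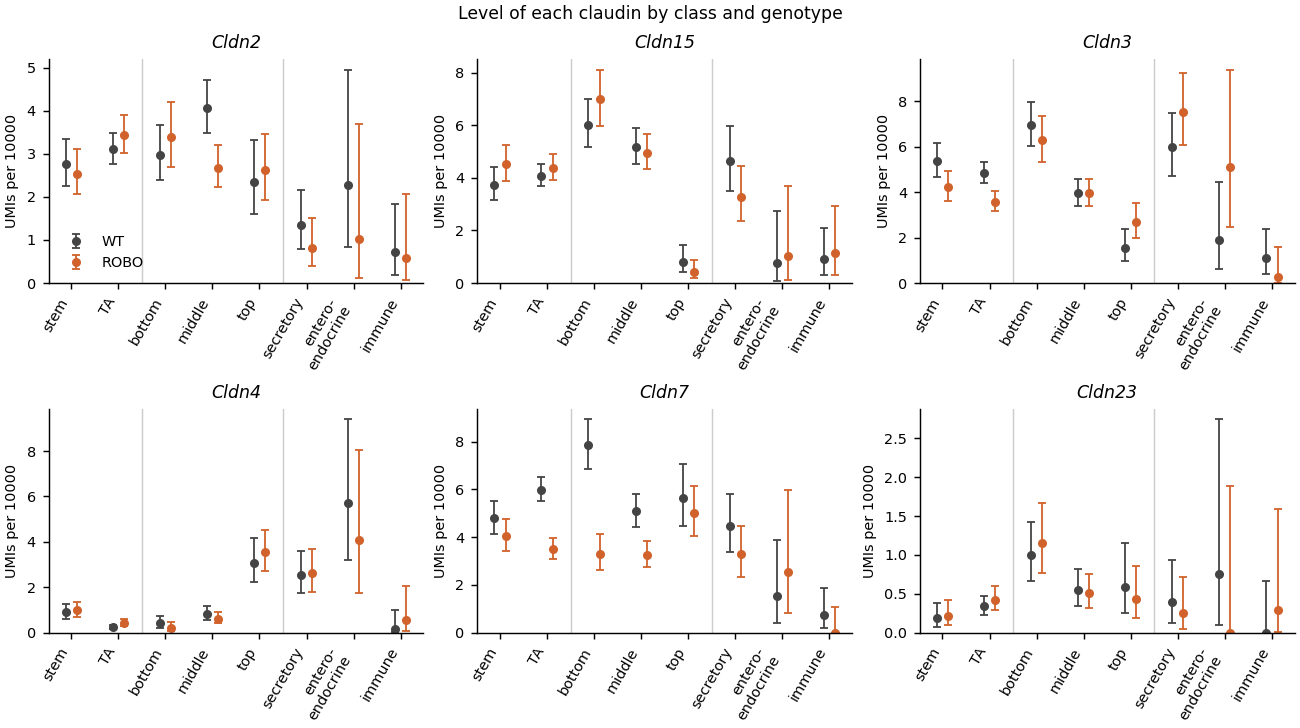
Level of each claudin (UMIs per 10000 UMIs, y axis) in the stem cell-like, transiently amplifying-like (TA), bottom, middle and top enterocyte-like, secretory-like, enteroendocrine-like and immune-like classes (x axis) of *WT* (grey) and *ROBO* (orange). Points are pooled sums, bars are exact Poisson 95% intervals for counting error, and vertical lines part the crypt, villus and other classes; *Cldn15* falls from 5.18 in middle to 0.81 in top enterocyte-like cells of *WT* while *Cldn4* rises from 0.83 to 3.08.

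The pore-forming claudins come first. *Cldn15* makes the main cation pore of the small intestinal junction, through which sodium returns to the lumen to drive nutrient uptake. Its level was 3.73 UMIs per 10000 (3.14 to 4.40) in *WT* and 4.53 (3.88 to 5.26) in *ROBO* stem cell-like cells, and 4.09 (3.68 to 4.52) and 4.39 (3.92 to 4.90) in transiently amplifying-like cells. Bottom enterocyte-like cells had the highest level, 6.03 (5.17 to 6.99) in *WT* and 6.98 (5.97 to 8.12) in *ROBO*, followed by middle enterocyte-like cells with 5.18 (4.52 to 5.91) and 4.96 (4.34 to 5.65). In the top enterocyte-like class it was 0.81 (0.40 to 1.44) in *WT*, from 11 UMIs, and 0.44 (0.19 to 0.86) in *ROBO*, from 8 UMIs. This lay below every other crypt or villus class with no overlap of intervals in either genotype, and not above the immune-like level of 0.90 (0.29 to 2.10) and 1.14 (0.31 to 2.93).

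*Cldn15* was thus 1.33-fold higher in bottom and middle enterocyte-like cells together than in the crypt (log2 ratio 0.42, 0.28 to 0.55) and was 8.53-fold lower in top than in middle enterocyte-like cells (log2 ratio -3.09, -3.84 to -2.43). Among the classes in order of level, bottom exceeded middle and middle exceeded transiently amplifying-like cells beyond counting error, while transiently amplifying-like, stem cell-like (4.13) and secretory-like cells (3.96) did not differ beyond it. With each cell thinned to 912 UMIs, 5.81% of top enterocyte-like cells (9 of 155, exact binomial interval 2.69 to 10.7%) had a *Cldn15* UMI, against 39.4% of bottom (78 of 198, 32.5 to 46.6%) and 13.9% of immune-like cells (5 of 36, 4.67 to 29.5%). Without thinning these shares were 6.96, 63.4 and 17.4%, at median depths of 1207, 2149 and 1750 UMIs. The share in top enterocyte-like cells was at or below the immune-like share and cannot be told from background by this guide. Enteroendocrine-like cells, with 4 *Cldn15* UMIs in all, also had a low level of 0.87 (0.24 to 2.23).

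*Cldn2* forms a second pore for cations and water and is known for its high level in the leaky epithelium of young animals and in crypts. Here it was found at every height of the axis, with differences of under 2-fold among the crypt and villus classes. *WT* had 2.76 UMIs per 10000 (2.26 to 3.34) in stem cell-like and 3.11 (2.76 to 3.49) in transiently amplifying-like cells. The bottom, middle and top enterocyte-like classes had 2.98 (2.39 to 3.68), 4.07 (3.48 to 4.72) and 2.35 (1.61 to 3.32). *ROBO* had, from stem cell-like to top enterocyte-like cells, 2.54 (2.06 to 3.11), 3.44 (3.03 to 3.90), 3.39 (2.70 to 4.21), 2.68 (2.23 to 3.20) and 2.62 (1.93 to 3.47). Over both genotypes, classes next to each other in order of level did not differ beyond counting error, but classes farther apart did. Top lay below middle enterocyte-like cells (log2 ratio -0.42, -0.80 to -0.06), by -0.79 (-1.38 to -0.24) in *WT* and -0.03 (-0.55 to 0.46) in *ROBO*, and transiently amplifying-like lay above stem cell-like cells (0.30, 0.06 to 0.54). The low end was the secretory-like class, goblet and Paneth cells in the main, with 1.36 (0.79 to 2.17) in *WT* and 0.82 (0.39 to 1.51) in *ROBO*, which over both was 2.81-fold below the crypt classes (log2 ratio -1.49, -2.10 to -0.94).

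The sealing claudins followed separate courses. *Cldn4* was low in the transiently amplifying-like class, with 0.23 UMIs per 10000 (0.14 to 0.35) in *WT* and 0.41 (0.28 to 0.59) in *ROBO*, and in bottom enterocyte-like cells, with 0.41 (0.21 to 0.72) and 0.21 (0.07 to 0.48). Over both genotypes these levels were 0.31 and 0.32, not above the immune-like 0.33 (0.07 to 0.97), and cannot be told from background. Stem cell-like cells had 0.89 (0.62 to 1.25) and 0.98 (0.69 to 1.35), and middle enterocyte-like cells had 0.83 (0.58 to 1.15) and 0.61 (0.41 to 0.89). Over both genotypes these were 0.94 and 0.72, also within the immune-like interval, which rests on 3 UMIs. In the top enterocyte-like class *Cldn4* reached 3.08 (2.22 to 4.17) and 3.54 (2.73 to 4.52), above each of the other crypt and villus classes in both genotypes with no overlap of intervals.

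Top over middle enterocyte-like cells, *Cldn4* was 4.67-fold higher (log2 ratio 2.22, 1.76 to 2.69), and top over crypt 6.61-fold higher (2.72, 2.34 to 3.11). It was high off the absorptive line as well. Secretory-like cells had 2.55 (1.75 to 3.60) in *WT* and 2.62 (1.80 to 3.70) in *ROBO*, and enteroendocrine-like cells, the hormone-making cells, had 5.70 (3.19 to 9.40) and 4.08 (1.76 to 8.04) from 15 and 8 UMIs. In order of level, enteroendocrine-like, top enterocyte-like and secretory-like cells did not differ from the next among these 3 beyond counting error, and the secretory-like class stood 1.47 log2 units (0.96 to 1.97) above the stem cell-like class. A *Cldn4* UMI was found in 19.4% of thinned top enterocyte-like cells (30 of 155, 13.5 to 26.5%) and 2.78% of immune-like cells (1 of 36, 0.07 to 14.5%); without thinning the shares were 24.8 and 6.52%.

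*Cldn3*, a further sealing claudin, was broad in the crypt and lower in the top enterocyte-like class. *WT* levels were 5.39 (4.67 to 6.18) in stem cell-like and 4.85 (4.41 to 5.32) in transiently amplifying-like cells, and 6.95 (6.03 to 7.98), 3.95 (3.37 to 4.60) and 1.54 (0.95 to 2.36) in the bottom, middle and top enterocyte-like classes. The *ROBO* levels were 4.24 (3.61 to 4.95), 3.58 (3.16 to 4.04), 6.28 (5.32 to 7.36), 3.95 (3.40 to 4.57) and 2.67 (1.98 to 3.53). Bottom enterocyte-like cells were the highest and top enterocyte-like cells the lowest on this axis in both genotypes. The top class was 1.80-fold below the middle class (log2 ratio -0.85, -1.24 to -0.48). Secretory-like cells, with 5.98 (4.70 to 7.50) in *WT* and 7.54 (6.08 to 9.25) in *ROBO*, did not differ from bottom enterocyte-like cells beyond counting error and were 1.52-fold above the crypt over both genotypes. By genotype that log2 ratio was 0.26 (-0.11 to 0.60) in *WT*, which held 0, and 0.99 (0.65 to 1.32) in *ROBO*.

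*Cldn7*, which binds EpCAM and is also found along the lateral membrane, was present at every height of the axis. Over both genotypes it ran from 4.13 (3.72 to 4.58) in middle to 5.79 (5.16 to 6.47) in bottom enterocyte-like cells, a span in which bottom enterocyte-like exceeded stem cell-like cells (log2 ratio 0.39, 0.16 to 0.62) and top exceeded middle enterocyte-like cells (0.35, 0.08 to 0.62). The top enterocyte-like class kept 5.65 (4.46 to 7.06) in *WT* and 5.02 (4.04 to 6.15) in *ROBO*. Between bottom enterocyte-like and stem cell-like cells the genotypes stood apart, with a log2 ratio of 0.71 (0.43 to 1.00) in *WT* and -0.29 (-0.70 to 0.11) in *ROBO*. *Epcam* was high on both sides: its level was 20.4 (19.9 to 21.0) in crypt and 18.9 (18.3 to 19.6) in villus cells.

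Among the crypt and villus classes, *Cldn23* was highest in bottom enterocyte-like cells, with 0.99 (0.67 to 1.43) in *WT* and 1.16 (0.77 to 1.67) in *ROBO*, and lowest in stem cell-like cells, with 0.18 (0.07 to 0.38) and 0.21 (0.09 to 0.42), intervals that held the immune-like level of 0.11. Bottom over stem cell-like cells, this was 5.40-fold higher (log2 ratio 2.43, 1.59 to 3.36). Middle and top enterocyte-like cells, with 0.52 (0.38 to 0.70) and 0.50 (0.29 to 0.81), did not differ beyond counting error, and bottom enterocyte-like cells stood above both (log2 ratio over middle 1.03, 0.44 to 1.62). The middle, top and transiently amplifying-like levels, the last 0.38 (0.29 to 0.48), lay within the immune-like interval of 0.003 to 0.62. That interval rests on 1 UMI, and these levels cannot be told from background by it.

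The top enterocyte-like class was then set against all other epithelial-like cells, a comparison added after the levels had been seen. Of the 6 claudins, 3 were past 2-fold, beside 50.9% of the 8975 genes tested. *Cldn4* was 4.71-fold higher (log2 ratio 2.24, 1.91 to 2.55), *Cldn15* 7.87-fold lower (-2.98, -3.71 to -2.33) and *Cldn3* 2.17-fold lower (-1.12, -1.48 to -0.77). The median of all genes was -0.75, so *Cldn3* lay only slightly below it, while 819 of the 8975 genes, 9.13%, had a ratio as low as that of *Cldn15* or lower. Among the 297 genes with at least as many UMIs as *Cldn15*, 12 did. *Cldn4* stood at the other end, with 8804 of 8975 genes at or below its ratio. The directions held within each genotype: *Cldn15* had -2.49 in *WT* and -3.47 in *ROBO*, *Cldn4* 2.11 and 2.33, and *Cldn3* -1.73 and -0.70. With 30 principal components, where the top class held 364 cells, the ratios of *Cldn15* and *Cldn3* were -1.57 and -0.24.

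**Figure D2:**
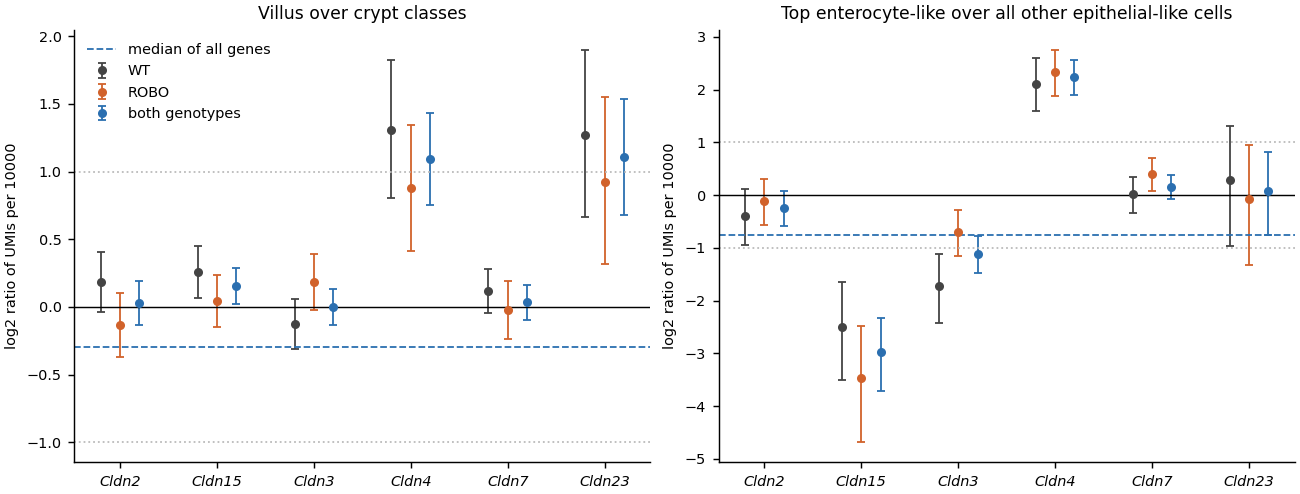
Log2 ratio of UMIs per 10000 (y axis) of each claudin for villus over crypt classes (left) and for top enterocyte-like over all other epithelial-like cells (right), in *WT* (grey), *ROBO* (orange) and both (blue). Bars are conditional exact 95% intervals, dotted lines mark 2-fold and the dashed line the median of all genes (-0.30 and -0.75); *Cldn4* is above and *Cldn15* and *Cldn3* are below 0 in the right panel in both genotypes.

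For *Cldn2* and *Cldn7* the ratio in the top class depended on the scale. On UMIs per 10000 it was -0.25 (-0.59 to 0.08) and 0.16 (-0.08 to 0.38), with median-of-ratios size factors 0.42 and 0.82, and per cell without scaling -0.79 and -0.39. No direction is given for them. *Cldn4* stayed above 1 and *Cldn15* below -2 under each of these scales, at 1.69 to 2.90 and -3.52 to -2.31. *Cldn3* stayed below 0 but was within 2-fold with median-of-ratios factors, at -0.46, and had -1.66 per cell.

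The mix of claudins, summed over the cells of a class, changed along the axis. Together the 6 took 17.1 UMIs per 10000 (16.2 to 18.1) in stem cell-like and 17.3 (16.7 to 18.0) in transiently amplifying-like cells. The bottom, middle and top enterocyte-like classes had 23.4 (22.2 to 24.8), 17.7 (16.9 to 18.6) and 14.4 (13.1 to 15.8), against 3.32 (2.24 to 4.74) in immune-like cells. *Cldn15* supplied 24.1 to 28.6% of these claudin UMIs in the first 4 of these classes and 4.12% (19 of 461, 2.50 to 6.36%) in the top class. *Cldn4* supplied 1.36 to 5.46% in the first 4 and 23.2% (107 of 461, 19.4 to 27.3%) in the top class. The share of *Cldn2* stayed between 13.5 and 18.9% in all 5. After thinning, bottom enterocyte-like cells had UMIs of 1.62 different claudins per cell on average and top enterocyte-like cells of 1.07, and 12.6 and 29.0% of cells had none.

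**Figure D3:**
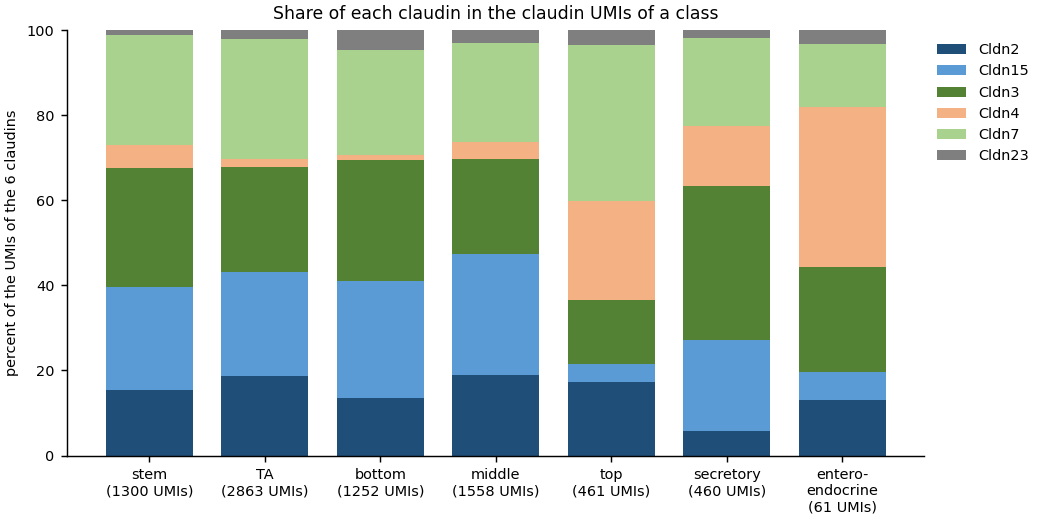
Percent of the UMIs of the 6 claudins taken by each (y axis, stacked to 100) in 7 epithelial-like classes (x axis, with the claudin UMIs of the class in parentheses), both genotypes together. In the top enterocyte-like class *Cldn4* takes 23.2% and *Cldn15* 4.12%, against 4.04% and 28.6% in the middle class.

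The middle enterocyte-like class held a pair of clusters that differed in their claudins. The cluster led by *Sis*, the sucrase-isomaltase gene of the brush border, had 1.98 *Cldn4* UMIs per 10000 in *WT* and 1.10 in *ROBO*, against 0.22 and 0.34 in the cluster led by *Cubn*, the receptor for vitamin B12 with intrinsic factor. Over both genotypes this was 5.36-fold (log2 ratio 2.42, 1.58 to 3.34). *Cldn23* followed the same division, with 1.02 and 1.16 against 0.29 and 0.14, or 5.17-fold (2.37, 1.38 to 3.45). In the *Cubn*-led cluster the pooled levels were 0.28 for *Cldn4*, from 16 UMIs, and 0.21 for *Cldn23*, from 12. Both lay within the immune-like intervals (0.07 to 0.97 and 0.003 to 0.62) and cannot be told from background. The size of neither ratio is therefore settled. *Cldn3* was 1.71-fold higher (0.78, 0.46 to 1.09) and *Cldn2* 1.43-fold higher (0.51, 0.17 to 0.85) in the *Sis*-led cluster. For *Cldn7* the pooled log2 ratio of -0.01 (-0.33 to 0.31) joined 0.55 (0.14 to 0.95) in *WT* with -0.92 (-1.52 to -0.36) in *ROBO*. The *Sis*-led cluster had 135 cells at a median of 1859 UMIs and the *Cubn*-led cluster 281 at 1574.

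A score that does not use the clusters gave a second view. It sums the same marker lists that named the clusters, so it is not independent of the classes. For each cell it was the log2 ratio of villus marker UMIs plus 1 over crypt marker UMIs plus 1, and the 2551 epithelial-like cells were ranked into 5 equal bins. *Cldn15* rose from 3.60 UMIs per 10000 in *WT* and 3.48 in *ROBO* in the lowest bin to 5.78 and 6.32 in the fourth and was 3.92 and 3.38 in the highest. *Cldn23* went from 0.18 and 0.26 through 0.95 and 0.71 in the fourth bin to 0.59 and 0.51. *Cldn4* lay between 0.59 and 0.86 in the first 4 bins of both genotypes and at 1.53 in the highest bin of both. The highest bin held 45.3% middle and 40.8% top enterocyte-like cells.

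**Figure D4:**
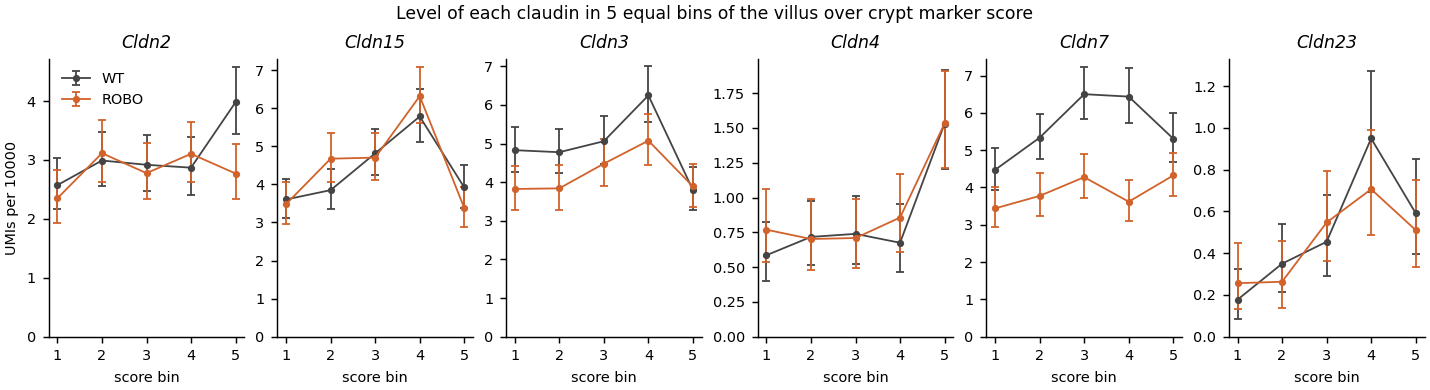
Level of each claudin (UMIs per 10000, y axis) in 5 equal bins of epithelial-like cells ranked by the villus over crypt marker score (x axis, 1 is the most crypt-like), for *WT* (grey) and *ROBO* (orange) with exact Poisson 95% intervals. *Cldn15* and *Cldn23* peak in bin 4, *Cldn4* rises to 1.53 in bin 5 in both genotypes, and *Cldn7* of *ROBO* lies below that of *WT* in each bin.

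Between genotypes, the claudin levels over all epithelial-like cells were close. None of the 6 was past 1.5-fold, beside 5.01% of the 8975 genes tested, and the members' median log2 ratio of *ROBO* over *WT* was -0.10, with 0.00 over all genes. The farthest from equal was *Cldn7*, with 5.58 UMIs per 10000 (5.30 to 5.87) in *WT* and 3.90 (3.65 to 4.16) in *ROBO*. These intervals did not overlap, and the *ROBO* level was 1.43-fold lower (log2 ratio -0.52, -0.64 to -0.40). A ratio as low or lower was found in 331 of the 8975 genes, and in 10 of the 276 with at least as many UMIs. The UMIs were spread over many cells, with 3.07% of the *WT* and 3.11% of the *ROBO* UMIs in the 5 cells with the most. After thinning, 39.8% of *WT* (384 of 964, 36.7 to 43.0%) and 30.6% of *ROBO* cells (290 of 948, 27.7 to 33.6%) had a *Cldn7* UMI, beside 57.6 and 48.3% without thinning.

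*Cldn3* had 4.93 (4.66 to 5.20) in *WT* cells and 4.22 (3.96 to 4.49) in *ROBO* cells, a log2 ratio of -0.22 (-0.34 to -0.10). With each cell given the same weight that ratio was -0.08, and thinned shares were 33.5 and 32.2%. The intervals of the other 4 ratios held 0, with -0.11 for *Cldn2*, 0.14 for *Cldn4*, 0.05 for *Cldn15* and -0.08 for *Cldn23*. For *Cldn4* and *Cldn23* they reached 0.42 and -0.47, so these counts do not set aside differences of up to that size.

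Within classes, the lower *Cldn7* level of *ROBO* was found in some and not in others. In transiently amplifying-like cells, 2 of the 6 claudins were past 1.5-fold, beside 11.2% of all genes tested in that class. *Cldn7* had 5.98 (5.50 to 6.50) in *WT* and 3.50 (3.08 to 3.96) in *ROBO*, which was 1.71-fold lower (log2 ratio -0.77, -0.99 to -0.56). The class joins a pair of clusters, and *Cldn7* had a log2 ratio of -0.99 (-1.27 to -0.72) in the one led by *Sfrp5* and of -0.33 (-0.71 to 0.04) in the one led by *Rn45s*. *Cldn4* was the other, at levels within the immune-like interval, with 0.23 and 0.41 from 21 and 30 UMIs (0.85, 0.00 to 1.73), and its ratio was -0.27 when phase scores were not regressed out before clustering.

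In bottom enterocyte-like cells, only *Cldn7* of the 5 members with 50 UMIs was past 1.5-fold, beside 18.6% of genes. It had 7.84 (6.86 to 8.93) in *WT* and 3.31 (2.62 to 4.11) in *ROBO*, which was 2.37-fold lower (log2 ratio -1.25, -1.63 to -0.87). Among the 2295 genes tested there, 25 had a ratio this low or lower. The median depth of this class was 1592 UMIs in *WT* and 2482 in *ROBO* cells, and its part in the result was not tested. In these cells *Epcam* had 18.8 in *WT* and 22.6 in *ROBO*, while *Tjp3*, which encodes the scaffold protein ZO-3, was 1.60-fold lower in *ROBO* (log2 ratio -0.68, -1.23 to -0.15). Of the 11 other junction genes tested in this class, 4 were past 1.5-fold, beside 18.6% of genes. All 4, *Tjp3* among them, were lower in *ROBO*.

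In middle enterocyte-like cells, 2 of 5 members were past 1.5-fold, beside 8.99% of genes. *Cldn7* had 5.08 (4.43 to 5.81) in *WT* and 3.25 (2.75 to 3.82) in *ROBO* (log2 ratio -0.65, -0.96 to -0.34). *Cldn2* had 4.07 and 2.68 (-0.60, -0.95 to -0.26), with -0.69 to -0.37 over the alternatives. The *Cldn7* difference was the larger in the *Sis*-led cluster, with 6.41 in *WT* and 2.07 in *ROBO* (-1.63, -2.24 to -1.05), and the *Cubn*-led cluster had 4.38 and 3.92 (-0.16, -0.54 to 0.22). For *Cldn2* the *Cubn*-led cluster had the larger difference, 3.73 and 2.13 (-0.81, -1.29 to -0.34), beside 4.70 and 3.65 (-0.36, -0.89 to 0.16) in the *Sis*-led cluster.

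In stem cell-like cells none of 5 members was past 1.5-fold, beside 9.13% of genes. *Cldn7* there had 4.78 in *WT* and 4.05 in *ROBO*, with a log2 ratio of -0.24 (-0.56 to 0.08) and *Cldn3* 5.39 and 4.24 (-0.35, -0.65 to -0.04). In top enterocyte-like cells 1 of 4 was past it, beside 11.3% of genes. That was *Cldn3*, with 1.54 in *WT* and 2.67 in *ROBO* from 21 and 49 UMIs (0.79, 0.03 to 1.61), and its ratio was -0.11 with 30 principal components, where this class grew from 230 to 364 cells. *Cldn7* had 5.65 and 5.02 there (-0.17, -0.63 to 0.28).

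**Figure D5:**
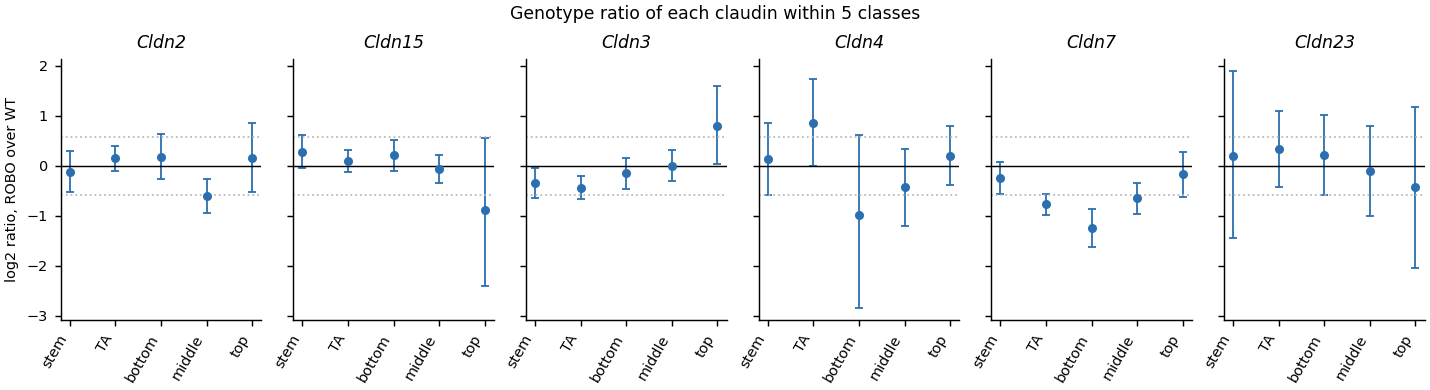
Log2 ratio of *ROBO* over *WT* (y axis) of each claudin within the stem cell-like, transiently amplifying-like (TA), bottom, middle and top enterocyte-like classes (x axis), with conditional exact 95% intervals; dotted lines mark 1.5-fold. *Cldn7* is lower in *ROBO* in the TA, bottom and middle classes (-0.77, -1.25 and -0.65), and the interval of *Cldn15* holds 0 in all 5.

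Counted over the 5 crypt and villus classes, the interval of the genotype ratio lay below 0 in 3 for *Cldn7*, in 2 for *Cldn3* and in 1 for *Cldn2*, and above 0 in 1 each for *Cldn3* and *Cldn4*. For *Cldn15* and *Cldn23* it held 0 in all 5. By cluster, *Cldn7* was not lower in the unnamed ones, with 4.20 in *WT* and 5.61 in *ROBO* in that led by *Myl7* (0.42, -0.01 to 0.85), and 5.54 and 7.05 in that led by *Fosb*, an early response gene (0.35, -0.20 to 0.89). Both of these intervals held 0. Without the 2 unnamed clusters the ratio over epithelial-like cells was -0.65, past 1.5-fold. Under every alternative in which the class was found, the *Cldn7* ratio stayed below 0. This held in transiently amplifying-like (-0.99 to -0.37), bottom (-1.32 to -0.84) and middle enterocyte-like cells (-1.62 to -0.41). The ratio was within 1.5-fold under some alternatives in the first and last. Resolution 0.4 gave no transiently amplifying-like or bottom class, and leaving doublets out gave no bottom class. Whether the classes differ in their *Cldn7* ratio was not tested.

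Other proteins of the tight junction give the setting. Of 60 other junction genes on lists of claudins, strand proteins, scaffolds, adhesion molecules, polarity proteins and EpCAM, 23 had at least 50 UMIs over crypt and villus cells, and 3 of these were past 2-fold, each higher in villus, beside 30.5% of all genes. They were *Pard6b*, a polarity protein (2.78-fold, log2 ratio 1.48, 0.93 to 2.04), *Igsf5*, a junctional adhesion molecule (2.43-fold, 1.28, 0.91 to 1.66), and *Mpp5*, a scaffold of the Crumbs complex (2.24-fold, 1.16, 0.66 to 1.67). The median of the 23 was 0.17, beside -0.30 for all genes. The scaffold gene *Cgn*, for cingulin, was 1.72-fold higher in villus (0.79, 0.56 to 1.01), and *Tjp3* was 1.32-fold lower (-0.40, -0.58 to -0.22). The ratios of *Ocln*, for occludin (0.35, -0.01 to 0.70), and *Tjp1*, for ZO-1 (0.10, -0.23 to 0.43), had intervals that held 0, as did that of *Cldn12* (-0.49, -1.06 to 0.06). In top enterocyte-like over all other epithelial-like cells 4 of the 23 were past 2-fold, beside 50.9% of all genes: *Cgn* (log2 ratio 1.16, 0.84 to 1.46) and the polarity kinase gene *Prkcz* were higher, and *Cldn12*, with 2 UMIs against 156, and *Marveld2*, for tricellulin, were lower, with *Prkcz* and *Marveld2* named after their values were seen. Between genotypes none of the 23 was past 1.5-fold over epithelial-like cells, beside 5.01% of all genes: *Tjp3* had a log2 ratio of -0.28 (-0.44 to -0.13), *Epcam* 0.10 (0.05 to 0.16), *Cgn* 0.16 (-0.05 to 0.37), *Ocln* 0.14 (-0.18 to 0.46) and *Tjp1* 0.20 (-0.10 to 0.50).

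The genes with the most similar pattern to each claudin were read from 14 points, the 7 epithelial-like classes in each genotype, as Pearson's r of log2(UMIs per 10000 + 0.1) among 3539 genes with at least 300 UMIs. The points share their libraries, and the values are descriptions. They were *Edn2*, *Kxd1* and *Ugt2b34* for *Cldn15* (r from 0.93 to 0.94), *Acadm* and *Smad4* for *Cldn2* (0.88 and 0.86), and *Entpd8*, *Camk2n1* and *Tm4sf4* for *Cldn4* (0.87 to 0.90). *Stt3a*, *Ssr2* and *Sfxn1* were closest to *Cldn3* (0.90 to 0.94), *Sfn*, *Pkp3* and *Aldh2* to *Cldn7* (0.84 to 0.87), and *Mlx*, *Larp1b* and *Cds1* to *Cldn23* (0.90 to 0.96). *Cldn23* itself had 239 UMIs over all cells, fewer than the 300 asked of the other genes. Its enteroendocrine-like points rest on 2 *WT* and 0 *ROBO* UMIs, and how far they set its r was not tested. Among the members, *Cldn15* and *Cldn4* had the most negative r, -0.80, and *Cldn15* and *Cldn3* the highest, 0.71.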

How the data were processed

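The authors built the gene matrices in BaseSpace Sequence Hub and deposited raw counts of UMIs per gene and cell, 1 matrix per genotype, from SureCell 3′ libraries captured on a ddSEQ isolator. The submitters' processing notes name mm10 and GRCm38; aligner, annotation and the rule for calling cells are not given in the sources used here. Each genotype was handled as 1 pooled sample, since cell names carry neither sample nor barcode; 0 columns were left unassigned.

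All cells were combined, scaled to 10000 UMIs, adjusted for S and G2M scores and clustered in Seurat 5.3.0 under R 4.3.3 (2000 variable genes without 68 junction genes, 20 principal components, resolution 0.8). A cluster took the name of the list with the highest share of its markers raised 1.5-fold, with 0.1 added, and detected in 10% of its cells, given at least 3 such markers and no greater number from another class among its 10 leading genes; this rule was set after the clusters were seen. Scrublet in scanpy 1.11.5, at an assumed rate of 5%, called 2 *WT* and 4 *ROBO* doublets, so few that doublets may remain; they were kept. Intervals were computed with scipy 1.17.1, at 95%, for counting error only, and checked on simulated data. The simulation drew sums from the counting models that the intervals assume. It checks the computation and does not cover spread between cells. Genes with at least 50 UMIs in a comparison formed its background. For shares of cells with a UMI, cells were thinned to 912 UMIs, the lower quartile, which left out 358 *WT* and 281 *ROBO* epithelial-like cells.

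Named genes are the 6 members, other claudins with at least 20 UMIs, junction genes past 2-fold between villus and crypt or 1.5-fold between genotypes over epithelial-like cells, *Epcam*, *Tjp1*, *Tjp3*, *Ocln* and *Cgn*, genes that name clusters, and the 3 most similar genes per claudin, of which 1 is not reported here. The members and lists were chosen with earlier results of these data known. No test was run, because cells are not replicates. Matplotlib 3.10.9 drew the plots.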

Additional observations from a re-analysis of the deposited data

Results flagged for a closer look

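The genotype ratio of *Cldn3* had opposite signs in different classes, with intervals that did not hold 0. In top enterocyte-like cells the log2 ratio of *ROBO* over *WT* was 0.79, while it was -0.35 in stem cell-like and -0.44 in transiently amplifying-like cells. The difference between the classes was not tested, and the value in the top class rests on 21 *WT* and 49 *ROBO* UMIs. With 30 principal components it was -0.11 in the top class, and in transiently amplifying-like cells it was 0.12 with that setting and 0.14 with doublets left out. Giving each cell the same weight moved the stem cell-like ratio to -0.01.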

How the results depend on the processing

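No paired analysis was possible because the cell names give the genotype but not the labelled sample, so that the replicate numbers shared by the groups could not be tied to cells; for the same reason no replicate could be left out. The comparison of top with other epithelial-like cells and the fits without the *Rn45s*-led cluster or the unnamed clusters were chosen after seeing the data. The causes of the changes given here were not tested. The number of claudins past 2-fold between villus and crypt, 2, was 1 without phase regression, with 30 principal components, with doublets left out, with cells given the same weight, without the 2% of cells with the most UMIs and with score bins, and 0 with junction genes among the variable genes, at resolution 1.2 and in *ROBO* alone. That of other junction genes, 3, was 5 at resolution 0.4. The log2 ratio of villus over crypt moved as follows. For *Cldn2* it was 0.28 with junction genes among the variable genes, 0.42 and 0.28 at resolutions 0.4 and 1.2, 0.23 with 30 components, 0.31 with doublets left out, 0.33 with median-of-ratios factors, -0.13 in *ROBO* and 0.21 with score bins. For *Cldn3* it was -0.36 at resolution 0.4, -0.21 with doublets left out, 0.30 with median-of-ratios factors and 0.18 in *ROBO*. For *Cldn4* it was 0.53 with junction genes included, 1.56 and 0.46 at resolutions 0.4 and 1.2, 0.62 with doublets left out and 0.75 with score bins. For *Cldn7* it was 0.33 with median-of-ratios factors and 0.19 with score bins. For *Cldn15* it was -0.39 at resolution 0.4, -0.035 with 30 components, -0.080 with equal weights, 0.45 with median-of-ratios factors and 0.31 with score bins, and for *Cldn23* 1.85 at resolution 0.4. The ratio of top over other epithelial-like cells moved with median-of-ratios factors to 0.42 for *Cldn2*, -0.46 for *Cldn3*, 2.90 for *Cldn4*, 0.82 for *Cldn7* and -2.31 for *Cldn15*. Without scaling it was -0.79 for *Cldn2*, -1.66 for *Cldn3*, 1.69 for *Cldn4* and -0.39 for *Cldn7*. With 30 components it was -0.24 for *Cldn3* and -1.57 for *Cldn15*. By genotype it was -1.73 in *WT* and -0.70 in *ROBO* for *Cldn3* and 0.40 in *ROBO* for *Cldn7*. Between genotypes, *Cldn3* over epithelial-like cells was -0.076 with equal weights, and *Cldn7* was -0.65 without the unnamed clusters, which made 1 claudin past 1.5-fold. Within classes, of the ratios past 1.5-fold, *Cldn3* in top enterocyte-like cells reversed to -0.11 with 30 components, and *Cldn4* in transiently amplifying-like cells to -0.27 without phase regression. *Cldn3* in transiently amplifying-like cells, within 1.5-fold at -0.44 but with an interval below 0, also changed sign, to 0.12 with 30 components and 0.14 with doublets left out. Of the alternatives for these ratios, 294 stayed within counting error and 13 moved beyond it. At resolution 0.4 no transiently amplifying-like or bottom class was found, and with doublets left out no bottom class. Depth limits *Cldn4* and *Cldn23* most, with 444 and 239 UMIs over all cells.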
